A study of Homo sapiens with 2 samples.

Results

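The genes described are the heat shock proteins, the DNAJ co-chaperones and the chaperonins in the human lung adenocarcinoma cell line CL1-0. They were chosen as the probe sets annotated to a single gene whose symbol is a DNAJA, DNAJB or DNAJC number, an HSPA, HSPB, HSPD, HSPE or HSPH symbol, a CCT subunit, or a named regulator or co-chaperone (CRYAB, HSF1, BAG3, STIP1, FKBP4, CHORDC1). The rule found 85 genes, with 189 probe sets, of 19775 genes annotated singly on the array. Of these genes, 43 encode J proteins, and 5 are antisense or divergent transcripts that share a chaperone gene's symbol. TCP1, HSF2 and AHSA1, which the rule also names, had no probe set annotated to them alone and are not analysed here as genes.

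Heat shock proteins are molecular chaperones that bind unfolded protein and help it fold. They work in relays: J proteins (the DNAJA, DNAJB and DNAJC families) deliver clients to HSP70 and stimulate its ATPase, HSP110 proteins exchange its nucleotide, co-chaperones pass clients on to HSP90, and the ring-shaped chaperonins enclose folding chains such as actin and tubulin. The transcription factor HSF1 drives the cytosolic heat shock genes through heat shock elements in their promoters, while stress in the endoplasmic reticulum (ER) induces the ER chaperones by a separate pathway.

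The CL1-0 cells were given an antibody to the secreted glycoprotein FSTL1, and RNA was profiled on 2 Affymetrix arrays, 1 from cells given the antibody for 0 h and 1 from cells given it for 6 h. Both groups are described as stably transduced and selected with puromycin, with the vector not named. Cells kept for 6 h without the antibody were not analysed here, so time in culture and handling cannot be told apart from the antibody.

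A gene counted as measured when a probe set exceeded an intensity of 45.4 on at least 1 array, which is an assumed background (the median of all values of both arrays). Each gene was represented by its brightest measured probe set. Of the 85 members 67 were measured, 63 of them above the background on both arrays. The 18 others stayed below it, with a highest intensity of 39.7. They were the 5 antisense or divergent transcripts, the small heat shock proteins HSPB2, HSPB3, HSPB6, HSPB7 and HSPB9, the J proteins DNAJB7, DNAJB8, DNAJC5B, DNAJC12, DNAJC15 and DNAJC28, and HSPA12B and CCT8L2. Intensities of different probe sets are not comparable as levels, so each gene is compared only with itself. Where a pair of intensities is given, the first is at 0 h and the second at 6 h.

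Each time has 1 array. There is therefore no spread between replicates and no test, and every difference below is the log2 of the 6 h intensity minus the log2 of the 0 h intensity on these arrays. Over all 12669 measured genes the median difference was 0.017 with a standard deviation of 0.19 across genes, and probe sets of the same gene had a standard deviation of 0.16 among themselves. FSTL1, the antibody's target, was close to background (58.3 and 52.8). The labelled cell type, the type II alveolar cell, was barely visible in its markers: 6 of 11 were measured, with a highest intensity of 173.4 at 0 h and 207.9 at 6 h. The markers SFTPA1 and SFTPA2 had no probe set annotated to them alone and could not be measured. The surfactant genes SFTPC (113.3 and 92.3) and SFTPB (103.8 and 132.7) were low, and SFTPD was below background. General epithelial markers were low too: 2 of 4 were measured, KRT18 (148.2 and 120.9) and KRT8 (48.1 and 52.4). EPCAM and CDH1 stayed below background. Marker lists of leukocytes, fibroblasts and endothelium reached at most 73.5 on either array.

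The promoters of several members carry the sequences these pathways read. RefSeq promoters (GRCh38.p14, 250 bases before to 50 after each start site) matched 74 of the 85 members. A heat shock element of 3 alternating units was searched as GAA, TTC and GAA with 2 bases between neighbours, or as its reverse complement (TTC, GAA and TTC). It occurred in 5 of 94 member promoters (those of CHORDC1, DNAJA1, DNAJB6, HSPA6 and HSPD1) and in 0.49% of all 35116 promoters. Pairs of units, GAANNTTC or TTCNNGAA, each its own reverse complement and each contained in the longer element, occurred in 23 of 94 member promoters (24.5%) and in 13.5% of all. The following stretches lie upstream of the start site and are shown because they belong to members described below. They run 5′ to 3′ on the strand of the gene, with the matched element in capitals: 3 units or more for the first 4, pairs of units for DNAJB1, HSPA4L and DNAJB4, and an ER stress element for HSPA5.
CHORDC1: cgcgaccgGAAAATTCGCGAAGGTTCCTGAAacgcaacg
HSPD1: gcattTTCTGGAAAGTTCTGGAAccgag
HSPA6: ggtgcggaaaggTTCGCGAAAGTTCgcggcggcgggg
DNAJB6: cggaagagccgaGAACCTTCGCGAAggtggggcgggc
DNAJB1: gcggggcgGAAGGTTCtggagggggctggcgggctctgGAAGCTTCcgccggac
HSPA4L: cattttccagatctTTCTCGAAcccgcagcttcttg
DNAJB4: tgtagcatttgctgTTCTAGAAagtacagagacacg
HSPA5: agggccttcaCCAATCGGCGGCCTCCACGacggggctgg

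Their positions are chr11:90223079-90223117 on the minus strand for CHORDC1, chr2:197500063-197500090 on the minus strand for HSPD1 and chr1:161524454-161524490 on the plus strand for HSPA6. They are chr7:157336861-157336897 (plus) for DNAJB6, chr19:14518429-14518482 (minus) for DNAJB1 and chr4:127782138-127782173 (plus) for HSPA4L. DNAJB4 lies at chr1:78004827-78004862 (plus) and HSPA5 at chr9:125241381-125241419 (minus). In CHORDC1, 3 overlapping elements run together within 60 bases of the start site, and in HSPD1 2 overlap. The element of DNAJA1 lies just after the start site and is not shown. The ER stress element, CCAAT and CCACG with 9 bases between them, searched on both strands, occurred in HSPA5 alone among the members and in 0.0769% of all promoters. A match is a sequence only, and binding was not measured.

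Of the 67 measured members 40 were lower and 27 higher at 6 h, a median difference of -0.03, where 45.7% of all measured genes were lower and 54.3% higher. Of the 63 above background on both arrays, 36 were lower and 27 higher. Differences were small: 5 members were at least 20% lower (DNAJB1, DNAJC17, HSPA4L, CRYAB and CHORDC1), a size reached by 3.0% of all genes, and 3 were at least 25% higher (DNAJC22, DNAJB4 and HSPA13), reached by 6.28% of all genes. With quantile normalization these sizes were reached by 4.004% of all genes downward and 4.573% upward, and the same count of members was 6 lower and 2 higher. None passed 1.5-fold either way, which 0.182% of all genes did downward and 0.750% upward.

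**Figure D1:**
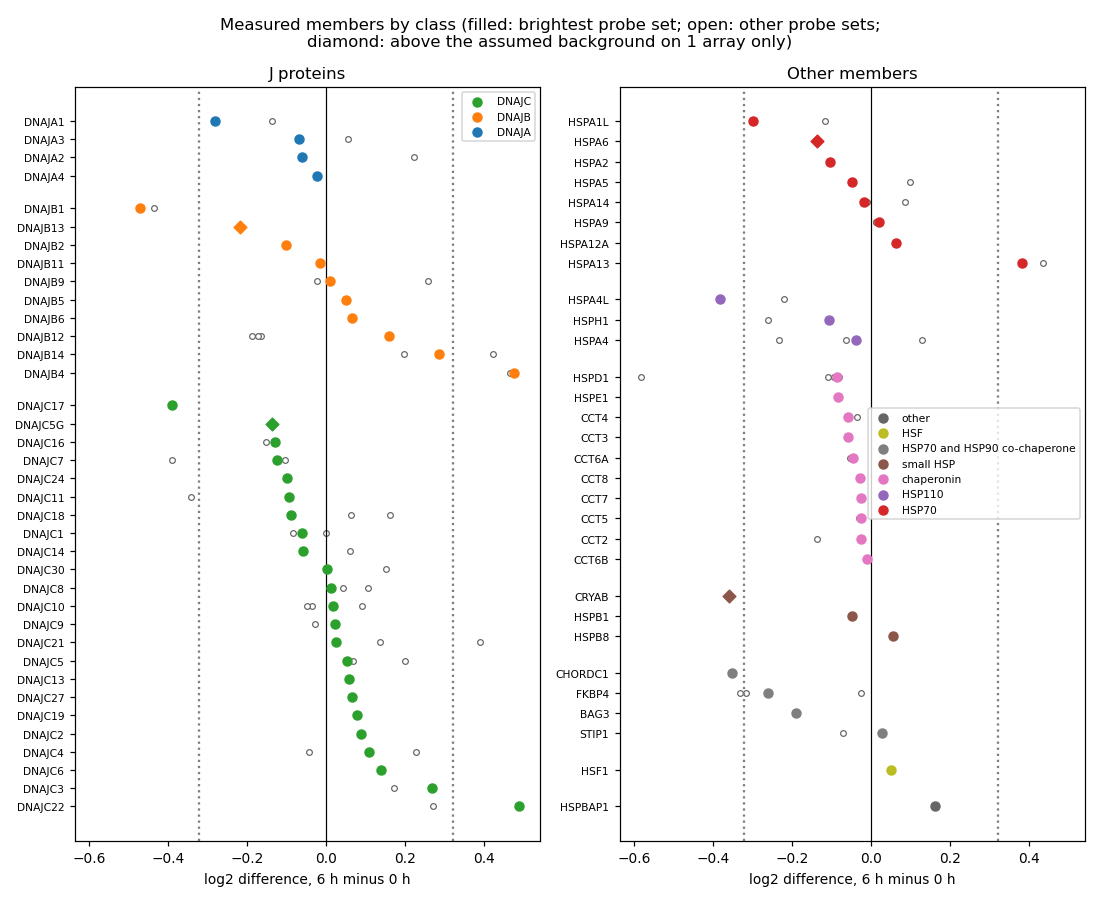
Log2 difference between the 6 h and the 0 h array (horizontal axis) for each of the 67 measured members, J proteins on the left and the others on the right, by class. Filled points are the brightest probe set of a gene, open points its other measured probe sets, diamonds genes above background on 1 array only, and dotted lines mark 20% lower and 25% higher; all 10 chaperonin genes lie left of 0, while the DNAJB and DNAJC families spread to both sides.

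The counts differed by class. Among members that are not J proteins 23 of 30 were lower (21 of 28 above background on both arrays), against 17 of 37 J proteins (15 of 35), beside 45.7% of all genes. Among the cytosolic members that are not J proteins 20 of 23 were lower, with the highest difference at 0.06. These include the 8 cytosolic chaperonin genes, all lower by little, between -0.06 and -0.01. HSPBAP1, at 0.16, was placed in the compartment group of other proteins and is not among the 23. After loess scaling 46 of the 67 members and 51.7% of all genes were lower. Pooling the classes in this way was not among the planned summaries by class and compartment. With 1 array a time this contrast between classes has no test.

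The J protein DNAJB1, the main partner of cytosolic HSP70 in refolding and a classic heat shock gene, stood at 1821 at 0 h and 1314 at 6 h. This is 1.39-fold lower, a difference of -0.47, and its second probe set was at -0.44. DNAJB4, its close relative with a similar role, went the other way, from 485.0 to 674.5, or 0.48, with a second probe set at 0.47. The pair therefore differed in opposite directions on every measured probe set, by nearly the same size. Both promoters hold at least a pair of heat shock units, as shown above.

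The other DNAJB members differed less. DNAJB14, a J protein of the ER membrane, stood at 605.2 and 737.1 (0.28), with 3 probe sets between 0.20 and 0.42. DNAJB12, its paralog, was at 0.16 on its brightest probe set (418.6 and 467.1), but its 3 other sets lay between -0.19 and -0.16, so it has no settled direction. DNAJB6, a suppressor of protein aggregation whose promoter holds a 3-unit element, was at 0.07 (779.6 and 815.6) on its only single-gene probe set. Brighter sets that list DNAJB6 with TMEM135 were at -0.12 (1281 and 1177) and 0.04 (999.2 and 1028), so its direction is not settled. DNAJB2, a neuron-enriched J protein, was at -0.10 and DNAJB5 at 0.05. DNAJB13, of the sperm axoneme, passed background at 0 h only (52.8 and 44.4).

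All 4 DNAJA members, the relatives of bacterial DnaJ, were lower on their brightest probe set, though with the median of its probe sets DNAJA2 was at 0.08. DNAJA1, which serves cytosolic HSP70 and belongs to the heat shock genes, stood at 8866 and 7298, a difference of -0.28, with its second probe set at -0.14. Of the 429 genes at least as bright as the chaperonin subunit CCT6A, DNAJA1 had the lowest difference; it was singled out after its values were seen. DNAJA3 of mitochondria (2757 and 2630), DNAJA2 (4319 and 4140) and DNAJA4 (129.3 and 127.3) lay between -0.07 and -0.02, and second probe sets of DNAJA2 and DNAJA3 were higher, at 0.22 and 0.06.

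DNAJC is the most varied J protein family, its members sharing little beyond the J domain. Of 23 measured 9 were lower and 14 higher, a median of 0.02, which is that of all genes. DNAJC17, a nuclear J protein linked to splicing, was the lowest (486.0 and 370.9, a difference of -0.39) on its only measured probe set. DNAJC22 was the highest (72.8 and 102.1, a difference of 0.49), with a second set at 0.27 (78.5 and 94.6), but it is dim. The sets are about equally bright, and the brightest is picked anew in each setting. Under quantile normalization the difference of DNAJC22 was 0.25, near that of the second set.

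DNAJC3, an ER-lumen partner of the chaperone BiP that also inhibits eIF2α kinases, stood at 278.9 and 335.7 (0.27), with a second set at 0.17. The clathrin-uncoating factor DNAJC6 (auxilin) was at 0.14. DNAJC8 (3091 and 3118) and the histone chaperone DNAJC9 (2995 and 3041), both nuclear, were at 0.01 and 0.02. DNAJC7, which binds both HSP70 and HSP90, was at -0.12 (2729 and 2504), with 3 probe sets between -0.39 and -0.10. The remaining DNAJC members lay between -0.14 and 0.11 on their brightest probe sets.

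**Figure D2:**
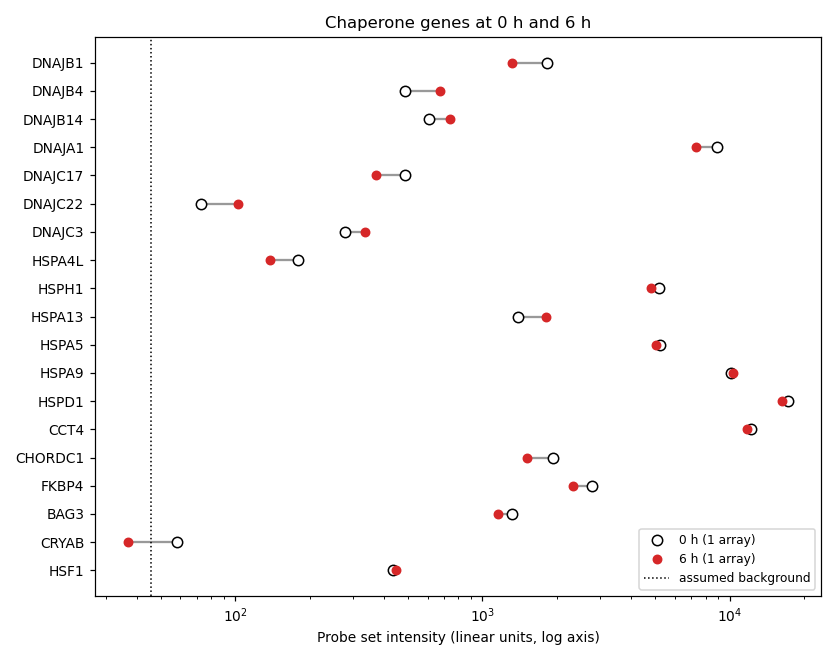
Probe set intensity (log axis) of 19 members at 0 h (open circles) and 6 h (red points), 1 array each, with the assumed background of 45.4 as a dotted line. DNAJB1 and DNAJB4 move in opposite directions, and CRYAB crosses the background line.

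In the HSP70 class 5 of 8 measured genes were lower (4 of 7 above background on both arrays), beside 45.7% of all genes. HSPA1L, a testis-enriched HSP70, stood at 159.4 and 129.5 (-0.30), with a second set at -0.12, and HSPA2, another testis-enriched form, was at -0.10. HSPA6, the strictly heat-inducible form with a 3-unit element in its promoter, passed background at 0 h only (49.9 and 42.0). HSPA13, a stress protein of the ER, differed from the rest of its class: it stood at 1389 and 1812 (0.38), with a second probe set at 0.43. BiP (HSPA5), the main ER HSP70, was at -0.05 (5220 and 5048), and its second set was at 0.10. The mitochondrial HSPA9 (10137 and 10283) was at 0.02, HSPA14 at -0.02 and HSPA12A at 0.06.

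The largest differences of the HSP70 family lay outside the rule. The array has 17 probe sets whose annotation joins any symbol of the rule with another gene, so that no gene can be named from them. Of the 16 measured, 13 were lower, beside 45.0% of all 28206 measured probe sets. They include 7 that list an HSP70 gene, 3 of them HSPA1A with HSPA1B and 4 HSPA8, and all 7 were lower. Another 3 list TCP1. Sets that list the same gene are not independent, so these are counts of probe sets and not of genes. Those whose annotation lists HSPA1A with HSPA1B, the near-identical stress-inducible HSP70 genes, were 200799_at (9619 and 6444), 202581_at (3449 and 2061) and 200800_s_at (7365 and 4060; this set lists HSPA1L too). Their differences were -0.58, -0.74 and -0.86, and all 3 were larger in size than that of any member on its brightest probe set. Counted from the lowest difference they ranked 62, 11 and 5 among the measured probe sets, of which 0.199% were at least 1.5-fold lower, and 2 of the 3 passed that size. Over 7 settings of floor and scaling each stayed within -0.88 and -0.58.

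The 4 probe sets listing HSPA8, the constitutive HSP70, together with small nucleolar RNAs of its introns were also lower, between -0.31 and -0.16; 210338_s_at went from 15151 to 12232. The 3 listing the chaperonin subunit TCP1 with a small nucleolar RNA lay between -0.25 and -0.05. A set listing CHORDC1 with a neighbouring gene was at -0.31. Sets listing DNAJB6 with TMEM135 were at -0.12 and 0.04. These sets were examined after their values were seen.

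The HSP110 class, 3 exchange factors of HSP70, was lower throughout on brightest probe sets. HSPA4L stood at 179.5 and 137.8 (-0.38), with a second set at -0.22. HSPH1, the heat-inducible HSP105, stood at 5159 and 4791 (-0.11), with 3 sets between -0.26 and -0.11. HSPA4 was at -0.04 (4161 and 4049), but its 4 sets ran from -0.23 to 0.13, and it was higher when probe sets ending in _x_at or _s_at were left out.

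Among small heat shock proteins, which hold unfolded chains without ATP, 3 of 8 were measured. HSPB1 (HSP27) stood at 3284 and 3174, a difference of -0.05. CRYAB (αB-crystallin) passed background at 0 h only (58.2 and 36.8) and was at least 1.28-fold lower; this bound depends on the assumed background, and with the 40th percentile in its place the difference was -0.66. HSPB8, the BAG3 partner in selective autophagy, was at 0.06 and close to background (58.3 and 60.7).

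The co-chaperones held the lowest class median, -0.22 over 4 genes, though without probe sets ending in _x_at or _s_at FKBP4 alone remains, at -0.026. CHORDC1, a heat-inducible HSP90 co-chaperone with the run of heat shock units shown above, stood at 1936 and 1517 (-0.35). FKBP4, a steroid receptor co-chaperone with HSP90, stood at 2781 and 2323 (-0.26); all 4 of its sets were lower, between -0.33 and -0.03. BAG3, an HSP70 exchange factor in autophagy and a heat shock gene, stood at 1319 and 1157 (-0.19). STIP1 (HOP), which links HSP70 to HSP90, was at 0.03 (2499 and 2550), with a second set at -0.07. HSF1, the regulator itself, was at 0.05 (433.5 and 448.9). HSPBAP1, which binds HSPB1, was at 0.16.

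The chaperonins spanned the narrowest range of any class with several measured genes, -0.09 to -0.01 on brightest probe sets. Their median of -0.04 was not the nearest to 0. All 8 measured cytosolic CCT genes were lower, by differences of -0.06 to -0.01, as were the mitochondrial HSPD1 and its lid HSPE1. The ring subunit TCP1 is not among the 8. The -0.01 end is the dim CCT6B (79.3 and 78.7), and the 7 others lay between -0.06 and -0.03. CCT4 stood at 12239 and 11747 (-0.06), CCT3 at 10383 and 9973 (-0.06) and CCT2 at 12681 and 12454 (-0.03). HSPD1 stood at 17264 and 16253 (-0.09), with 5 sets between -0.58 and -0.08 of which the lowest is dim (202.7 and 135.3), and HSPE1 at 9723 and 9183 (-0.08). Among the 429 genes at least as bright as CCT6A 50.3% were lower, with a median of -0.0008 and a range of -0.28 to 0.43. Each chaperonin difference is smaller than the scatter of 0.16 between probe sets of a gene, and subunits of a ring are not replicates. That scatter was taken over genes of all brightness, and the scatter of all genes narrows with brightness.

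**Figure D3:**
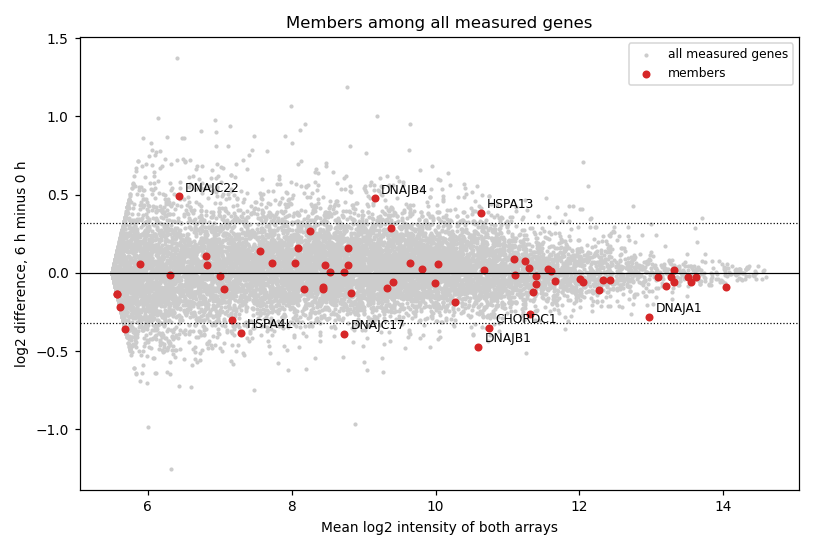
Log2 difference between 6 h and 0 h against the mean log2 intensity of both arrays, with all 12669 measured genes in grey, the 67 members in red and dotted lines at 20% lower and 25% higher. The scatter of all genes narrows with brightness; DNAJA1 lies at the lower edge among bright genes, and DNAJB1, CHORDC1 and HSPA13 lie toward the edges at middle brightness.

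By compartment, 26 of 34 cytosolic members were lower, with a median of -0.05, beside 45.7% of all genes. This repeats the contrast between classes: 6 of 11 cytosolic J proteins were lower, against 20 of 23 other cytosolic members. The ER group was split, with 6 lower and 6 higher and a median of -0.004: its higher end was HSPA13, DNAJB14 and DNAJC3, all on every measured probe set. BiP and the lumenal J proteins DNAJB11 (2212 and 2187) and DNAJB9 (421.8 and 424.4) lay between -0.05 and 0.01 on their brightest probe sets, and the 3 sets of DNAJB9 ran from -0.02 to 0.26. DNAJC10, an ER disulfide reductase, was at 0.02, and the membrane proteins DNAJC1, DNAJC14, DNAJC16 and DNAJC18 lay between -0.13 and -0.06 on their brightest probe sets. Other sets of DNAJC14 (0.06) and DNAJC18 (0.06 and 0.16) were higher.

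In mitochondria 4 of 7 were lower, beside 45.7% of all genes, with a median of -0.07 and a range of -0.09 to 0.08. Without probe sets ending in _x_at or _s_at the median was 0.003. DNAJC19, of the import motor, was at 0.08 (2354 and 2484), and DNAJC11, of the cristae-organizing complex, at -0.09 with a second set at -0.34. Of the 4 nuclear members 1 was lower, and of the 10 measured members placed in no named compartment 3 were lower, beside 45.7% of all genes. Compartments were assigned from general knowledge, so all these counts depend on that placement.

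**Figure D4:**
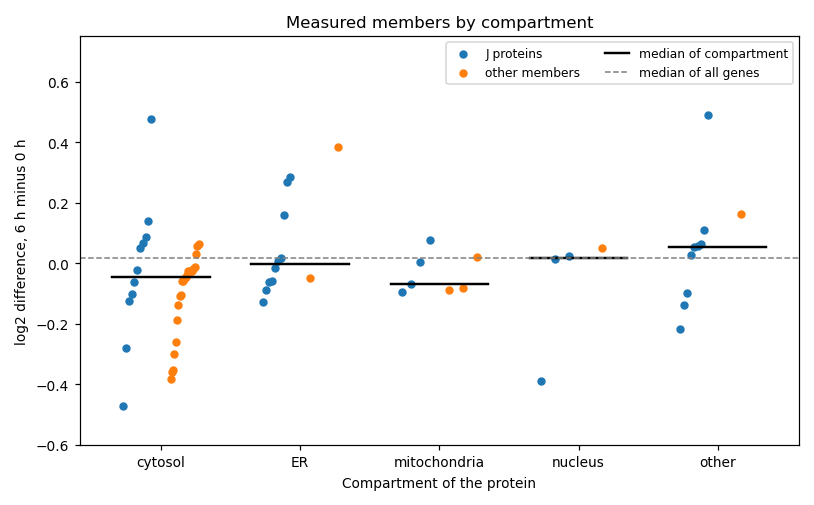
Log2 difference between 6 h and 0 h of the 67 measured members by the compartment of their protein, J proteins in blue and other members in orange, with the median of each compartment as a black bar and that of all genes as a dashed line. The cytosolic members that are not J proteins lie at or below 0.06, and the ER group spreads to both sides of 0.

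Several probe sets were measured for 40 members. All sets were lower for 15 of them (37.5%), where 20.9% of all genes with several sets had all sets lower. All sets were higher for 12 (30%), beside 30.4% of all genes, and 13 were mixed. Uniformly lower were CCT2, CCT4, CCT5, CCT6A, HSPD1, DNAJA1, DNAJB1, DNAJC1, DNAJC7, DNAJC11, DNAJC16, FKBP4, HSPA1L, HSPA4L and HSPH1. Probe sets of a gene come from the same 2 RNA samples and do not replicate the comparison.

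Textbook HSF1 targets, 15 of which are members, were read beside these values. Of 19 measured 16 were lower, with a median of -0.11, beside 45.7% of all genes. The exceptions were DNAJB4, HSPB8 and STIP1. Of the 17 targets above background on both arrays 14 were lower. The 4 measured targets that are no members were lower on their brightest probe sets: SERPINH1, the ER collagen chaperone, stood at 1216 and 906.3 (-0.42), while CACYBP and both cytosolic HSP90 genes lay between -0.06 and -0.04 on their brightest probe sets. The 4 sets of CACYBP ran from -0.06 to 0.32, so its direction is not settled. HSP90AA1 stood at 14744 and 14359, and HSP90AB1 at 16670 and 16034, with a set of the latter at 0.06. The list was drawn up with earlier results of these arrays known and is no independent evidence of a direction.

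Of 42 other chaperone genes outside the rule 40 were measured, 27 lower and 13 higher, with a median of -0.02, where 45.7% of all genes were lower. SERPINH1 was the only one at least 20% lower, a size reached by 3.0% of all genes. GRPEL2, a mitochondrial exchange factor, was the only one at least 25% higher, a size reached by 6.28% of all genes. It stood at 1448 and 2035, a difference of 0.49, with a second set at 0.23. SEC63, a J protein of the ER translocon, was at 0.28 (1541 and 1868), with 4 sets between 0.28 and 0.42. BAG2, which inhibits the ubiquitin ligase CHIP, was at -0.27 (1866 and 1548). SERPINH1, CACYBP, HSP90AA1 and HSP90AB1 are also counted among the HSF1 targets above, so the counts of these lists are not separate.

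**Figure D5:**
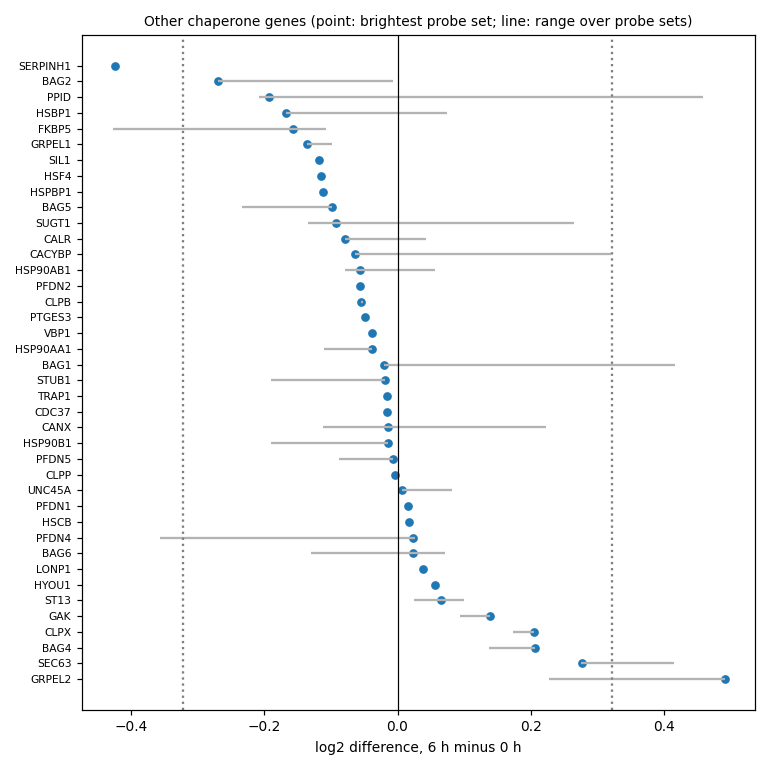
Log2 difference between 6 h and 0 h of the 40 measured chaperone genes outside the rule, each at its brightest probe set (point) with the range over its measured probe sets (line) and dotted lines at 20% lower and 25% higher. SERPINH1 lies lowest at -0.42 and GRPEL2 highest at 0.49, and most of the others lie near 0.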

How the data were processed

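The authors deposited linear intensity for 54675 probe sets on each of 2 arrays. The submitters' processing notes name MAS5; its version and any scaling of the arrays are not given in the sources used here; an unstated scaling difference would move all genes together, and dim values are noisy. Probe sets were named through the platform annotation, with symbols updated by Entrez identifier through RefSeq: 41097 had 1 gene, 1801 several and 11777 none. Members and lists were chosen with earlier results of these data known. Values below the 50th percentile of both arrays were set to it, log2 differences were taken as 6 h minus 0 h, and the brightest measured probe set stood for a gene. Every member could be named; those with the largest differences and the brightest of each class were described. Compartments were assigned from general knowledge. Motifs were searched in RefSeq promoters by exact letters. The steps were tested on simulated data, in Python 3.11.15 with statsmodels 0.14.6. With 1 array per time, no test was run; the number of arrays limits the precision.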

Additional observations from a re-analysis of the deposited data

How the results depend on the processing

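Differences were recomputed with the background at the 40th or 60th percentile, with none and log2(value + 16), after centring, quantile or loess scaling (span 0.3), with the median over probe sets, without _x_at and _s_at probe sets and, added after the data were seen, over genes above background on both arrays. The median over members lay between -0.05 and -0.02, and that of cytosolic members between -0.07 and -0.04; the median of HSF1 targets lay between -0.13 and -0.08 and that of the other chaperones between -0.05 and -0.01. With the 40th percentile 1 member, CRYAB, was at least 1.5-fold lower. Without _x_at and _s_at probe sets the co-chaperone median was -0.026, as only a dim set of FKBP4 remains and CHORDC1, BAG3 and STIP1 are lost. Of the 67 members 47 had a value under all 9 alternatives, and 20 were missing from 1 or 2. Over the alternatives in which each had a value 51 kept their sign (34 of the 47), and 16 changed it in at least 1: DNAJA2, DNAJB9, DNAJB12, DNAJC5, DNAJC8, DNAJC9, DNAJC10, DNAJC14, DNAJC18, DNAJC21, DNAJC30, HSF1, HSPA4, HSPA5, HSPA9 and STIP1. Medians of the DNAJB, DNAJC, HSP70, small heat shock protein, ER and mitochondrial groups changed sign in at least 1. Members near background, such as CRYAB, HSPA6 and HSPB8, are limited by signal. No paired analysis was possible because each time has 1 array.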
